A study of Mus musculus with 168 samples.

Results

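The genes described here carry out antigen presentation by MHC class I: the peptide transporter subunits Tap1 and Tap2, the loading factor Tapbp (tapasin), the light chain B2m, the heavy chains H2-K1 and H2-D1, the immunoproteasome subunits Psmb8 and Psmb9, and the transcriptional activator Nlrc5. All 9 were found by symbol among the 39410 genes of the expression table. The set was drawn up because Tap1 was higher in lumbar motor neurons of diseased mice early in life, so the question was whether the rest of the pathway rose with it. The set was thus chosen by the lumbar Tap1 values at days 2 and 5, which are therefore given as a description with no test.

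MHC class I displays fragments of a cell's own proteins at its surface, where CD8 T cells and natural killer cells read them. Proteasomes cut the proteins, the TAP transporter, a pair made of Tap1 and Tap2, pumps the peptides into the endoplasmic reticulum, tapasin holds the empty heavy chain next to the transporter, and B2m completes the complex. Interferon-gamma raises these genes together through factors that include Irf1 and Nlrc5, and Tap1 has also been described as a gene that p53 can switch on. Neurons carry little class I compared with most cells, and in the developing nervous system class I proteins also take part in synapse remodelling.

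The mice were the delta7 model of spinal muscular atrophy (SMA), a motor neuron disease caused by loss of the survival motor neuron protein. SMA mice lacked mouse Smn1 (Smn-/-) and carried human SMN2 (SMN2+/+) and the SMN∆7 transgene (SMN∆7+/+); littermate controls were Smn+/+ with both transgenes, so controls carry SMN2 and SMN∆7 as well. RNA came from pools of about 150 laser-captured cells of 6 populations (ocular, facial, vagus, hypoglossal and lumbar motor neurons, and neurons of the red nucleus) at postnatal days 2, 5 and 10, which the study calls pre-symptomatic, early and late symptomatic. The 168 libraries came from 34 mice (19 SMA, 15 control). Libraries of the same mouse and population were averaged to 160 samples in 36 groups of 3 to 7 mice. By their titles, some ocular libraries were of the nucleus CN3 or CN4 alone and the others of CN3CN4. They were treated as a single population, and the part of this difference in ocular levels was not tested. Per the labels, the 5 lumbar control libraries of day 5 were mapped together with reads that had been deposited before, so those controls differ from the SMA libraries of that day in how the reads were put together. Reads were assigned to the mm10 reference, whose class I genes are those of one inbred strain; the H2 haplotype of these mice is not given in the sources used here, and class I genes are among the most variable between strains.

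Promoter sequence is shown first because Tap1 and Psmb9, the 2 members whose lumbar levels separated the genotypes at day 10, are read in opposite directions from 1 short stretch. In GENCODE M21 (mm10) Tap1 lies at chr17:34187553-34197225 on the plus strand and Psmb9 at chr17:34181987-34187764 on the minus strand, and their gene models overlap by 212 bases. Psmb8 (chr17:34197721-34201454) and Tap2 (chr17:34203527-34216321) follow Tap1 on the plus strand, H2-K1 (chr17:33996017-34000347, minus strand), Tapbp (chr17:33915899-33929292, plus strand) and H2-D1 (chr17:35262730-35267499, plus strand) are also on chromosome 17, B2m is at chr2:122147686-122153083 and Nlrc5 at chr8:94434356-94527272, both on the plus strand. The lines below give RefSeq promoter sequence (GRCm38.p6), written 5′ to 3′: the bases between the first bases of Psmb9 and Tap1 in the direction of Tap1 (chr17:34187331-34187555, plus strand), and the 250 bases before the first base of B2m (chr2:122147437-122147686, plus strand), H2-K1 (chr17:34000348-34000597, minus strand) and H2-D1 (chr17:35262844-35263093, plus strand). Capitals mark matches, on either strand, to AANNGAAA (the core of an interferon-response element), GGGANNNNCC (kappaB) or ATTGG (the box bound by NF-Y).
Tap1-Psmb9: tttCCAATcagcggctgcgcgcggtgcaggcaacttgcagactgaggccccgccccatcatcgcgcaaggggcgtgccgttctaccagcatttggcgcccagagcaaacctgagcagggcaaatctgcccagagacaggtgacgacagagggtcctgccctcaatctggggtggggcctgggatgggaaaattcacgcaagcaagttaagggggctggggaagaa
B2m: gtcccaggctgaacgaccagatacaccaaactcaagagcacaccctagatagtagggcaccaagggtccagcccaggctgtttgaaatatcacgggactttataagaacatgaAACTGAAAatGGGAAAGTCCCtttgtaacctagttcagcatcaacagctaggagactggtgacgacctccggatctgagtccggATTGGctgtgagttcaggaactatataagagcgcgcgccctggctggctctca
H2-K1: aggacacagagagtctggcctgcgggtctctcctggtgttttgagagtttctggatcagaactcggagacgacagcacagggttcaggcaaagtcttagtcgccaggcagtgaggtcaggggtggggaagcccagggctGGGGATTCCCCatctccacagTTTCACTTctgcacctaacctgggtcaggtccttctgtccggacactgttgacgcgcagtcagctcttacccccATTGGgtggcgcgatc
H2-D1: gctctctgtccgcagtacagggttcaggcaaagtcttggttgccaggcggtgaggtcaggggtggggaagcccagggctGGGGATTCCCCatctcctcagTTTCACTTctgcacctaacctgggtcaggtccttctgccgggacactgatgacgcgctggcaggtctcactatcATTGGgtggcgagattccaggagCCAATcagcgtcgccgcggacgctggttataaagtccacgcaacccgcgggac

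B2m, H2-K1 and H2-D1 each held 1 match to the interferon-response core and 2 overlapping kappaB matches, and the Tap1-Psmb9 stretch held neither. Over all 32526 RefSeq windows of 250 bases upstream of a gene, 21.3% held the interferon-response letters, 17.7% the kappaB letters and 33.8% the NF-Y letters. The Tap1-Psmb9 stretch held 1 NF-Y box and 1 GC box (GGGCGG, in 33% of windows), and no match to a p53 half-site (in 7.13% of windows). Tapbp held 2 NF-Y boxes and no interferon-response or kappaB match, and Psmb8 held none of the letters searched. H2-K1 and H2-D1 are identical at 87.4% of 190 aligned upstream bases, and their coding sequences are also close copies, so reads could be exchanged between their rows. A match is a description of letters in one window, and the absence of one says only that those letters are not in it.

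The genotype labels matched the targeted gene: Smn1 ranged from 4.32 to 63.3 RPKM in the 72 control samples and from 0 to 4.24 RPKM in the 88 SMA samples, 70 of which were at 0. Chat, the enzyme that makes acetylcholine, was above 0 in all 137 motor neuron samples with medians of 26.4 RPKM in controls and 20.2 RPKM in SMA, and its median was 0 in the red nucleus, where the glutamate transporter Slc17a6 ranged from 120.8 to 249.7 RPKM. Library depth, recovered from the steps between low RPKM values, ranged from 0.342 to 16.3 M reads, with a median of 5.89 M. Glial transcripts were captured with the neurons: in lumbar controls the 8 astrocyte markers summed to a median of 1724 RPKM at day 2 and the 7 oligodendrocyte markers to 918 RPKM at day 10. In such pools, fewer expressing cells and less RNA per cell cannot be told apart.

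The members spanned the whole range of expression (levels in RPKM, reads scaled to gene length and library size, which can be compared between genes). B2m and H2-D1 were abundant in every one of the 160 samples, with medians of 82.5 and 68.9 RPKM, higher than 96.8% and 96.3% of all genes in the table. Tapbp, at a median of 22.04 RPKM, and H2-K1, at 9.64 RPKM, were also above 0 in all 160. The 5 others were low. Psmb9 had a median of 2.89 RPKM and was above 0 in 110 samples, Tap1 had a median of 1.74 RPKM and was above 0 in 147, and Psmb8 had a median of 0.238 RPKM. Tap2 and Nlrc5 had medians of 0 and were above 0 in 77 and 62 samples. Tap1 and Tap2 form a single transporter, yet in controls Tap1 was at 0 in 8 of 72 samples and Tap2 in 38 of 72.

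In lumbar motor neurons Tap1 was low in controls at every age and higher in SMA mice from day 5. At day 2 the 7 SMA mice ranged from 0 to 4.605 RPKM with a median of 1.67 RPKM, and the 4 control mice had 1.33, 0.25, 1.48 and 0.518 RPKM. At day 5 the 5 SMA mice had 6.79, 7.20, 5.62, 4.99 and 14.7 RPKM, against 0.293, 0.791, 1.13, 0.989 and 0.716 RPKM in the 5 controls. The ranges overlapped at day 2, and at day 5 every SMA mouse was above every control, with a ratio of means of 10.0. The day 5 controls are the libraries mapped with added reads, and the part of that step was not tested. These lumbar values chose the set and are not tested; for reference, 0.769% of the 16382 genes tested in lumbar neurons were higher in every SMA mouse than in every control at day 5, and 0.0366% passed the test as higher.

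At day 10, in other mice, Tap1 in lumbar neurons was 3.89, 7.73, 7.28, 10.7 and 3.43 RPKM in the 5 SMA mice and 0.27, 0.676, 1.37 and 0 RPKM in the 4 controls. The groups did not overlap, and the means were 6.61 ± 3.00 (SD, n = 5) and 0.578 ± 0.596 RPKM (SD, n = 4). On the log2(RPKM + 1) scale Tap1 rose by 2.25 (SE 0.42; limma with Benjamini-Hochberg adjustment over all genes, adjusted p = 0.00415), and it was called in all 9 fits that left out 1 of these mice. Of the 16382 genes tested in lumbar neurons, 0.708% were called higher at that age and 2.76% separated the groups in that direction. Estimated from the RPKM steps, the signal rests on 24 to 86 Tap1 reads per SMA library and 0 to 8 per control library at day 10.

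Facial motor neurons showed the same direction at days 5 and 10. All facial samples of these days, and the ocular samples of day 10, came from mice that also gave lumbar samples. At day 5 these include the mice whose lumbar values chose the set. At day 5 Tap1 was 3.46, 4.91 and 6.16 RPKM in 3 SMA mice and 0.061, 1.01, 1.39 and 2.22 RPKM in 4 controls. The groups did not overlap, as for 4.05% of genes tested there, and the difference of 1.51 log2 units did not pass the test (adjusted p = 0.848). In these samples the 10 endothelial markers summed to 39.96 to 61.3 RPKM in SMA mice and 97.7 to 119.1 RPKM in controls and the 2 red nucleus markers to 11.01 to 11.7 and 2.94 to 10.6 RPKM, also without overlap, and their part was not tested. At day 10 Tap1 reached 11.5, 17.5, 13.6 and 5.85 RPKM in SMA mice, against 0.094, 1.35, 0.176 and 1.84 RPKM in controls. Every SMA mouse was again above every control, as for 3.32% of genes, and this rise of 2.85 log2 units (SE 0.57) was called (adjusted p = 0.00998), as were 0.562% of 17270 genes in the higher direction. The facial call was lost with a pseudocount of 0.1 in place of 1 (adjusted p = 0.143) and without control mouse 247 (adjusted p = 0.0517).

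Ocular motor neurons, which are comparatively spared in SMA, had Tap1 levels at day 10 of 8.35, 7.64, 15.7, 6.59 and 7.57 RPKM in SMA mice and 1.43, 0.065, 1.76 and 1.44 RPKM in controls. The groups did not overlap, as for 2.32% of 15890 genes, and the difference of 2.25 log2 units (SE 0.56) missed the threshold (adjusted p = 0.0873), which 0.334% of genes passed as higher. It was called in 0 of 9 fits that left out 1 of these mice (adjusted p = 0.108 to 0.425), and it also missed with a pseudocount of 0.1 (0.505) or no filter on low values (0.171). It passed with the 2 groups alone in the fit (adjusted p = 0.0148), with each library as a sample, where 12 libraries stand for 9 mice (0.00702), with the mouse as a block over all populations (0.0107), and without ocular day 2 mouse 14, 207 or 244 (0.0434 to 0.0497). In the same day 10 ocular samples the 5 motor neuron markers measured summed to 452.5 to 875.1 RPKM in SMA mice and 926 to 1024 RPKM in controls, without overlap, and the 2 red nucleus markers to 9.07 to 176.9 and 4.74 to 16.9 RPKM. Their part in the Tap1 difference was not tested. At days 2 and 5 the ocular Tap1 groups overlapped, with differences of -0.34 and 0.83 log2 units.

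In hypoglossal neurons at day 10 Tap1 was 5.57, 2.02, 11.99, 4.42 and 7.68 RPKM in SMA mice and 4.70, 3.45, 1.12 and 1.86 RPKM in controls. These groups overlapped, and the difference of 0.90 log2 units had a 95% interval from -0.03 to 1.83 (adjusted p = 0.763). The vagus and the red nucleus gave day 10 differences of -0.43 (interval -1.59 to 0.74) and 0.33 (interval -0.834 to 1.496), with no SMA mouse above 2.01 RPKM in either. The lumbar difference exceeded the mean difference of the other 5 populations by 1.07 log2 units at day 10, with an interval from -0.07 to 2.21 (adjusted p = 1, with 0.108% of all genes called in either direction). A lumbar effect larger than elsewhere was thus not shown at that age.

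**Figure D1:**
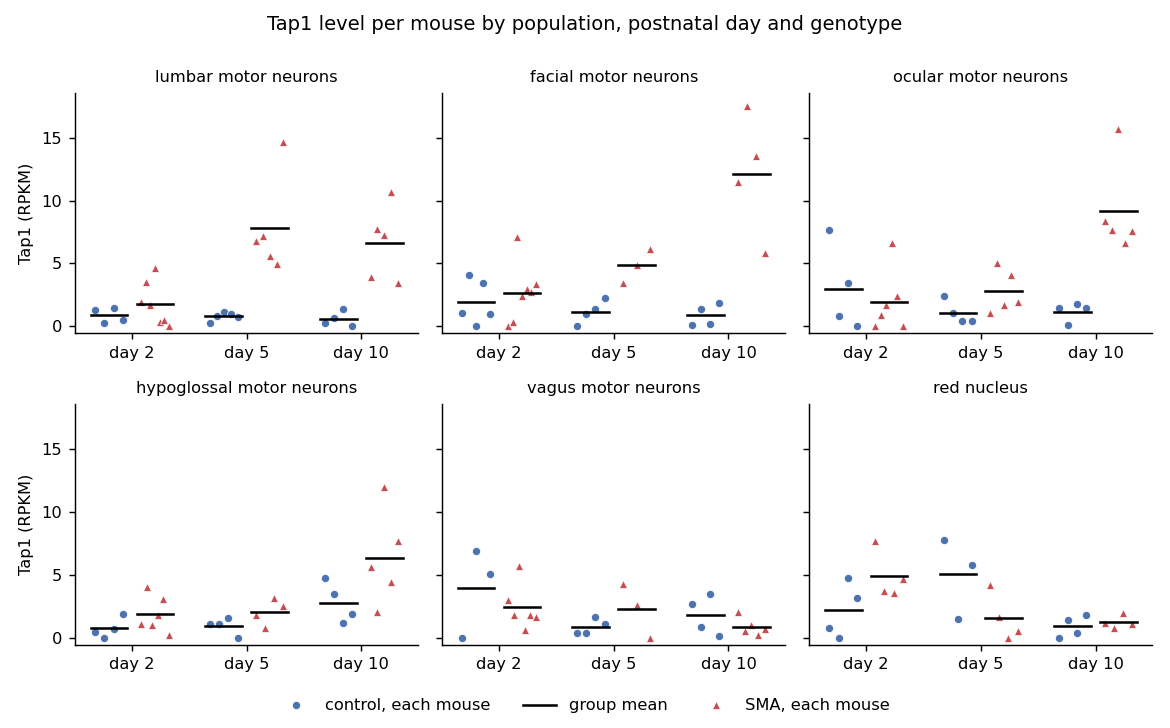
Tap1 level in RPKM (vertical axis) in every mouse, by postnatal day (horizontal axis), with 1 panel for each population; blue circles are control mice, red triangles SMA mice and black bars group means. At day 10 every SMA mouse lies above every control in lumbar, facial and ocular neurons, where SMA means were 6.61, 12.1 and 9.17 RPKM. In the hypoglossal nucleus, vagus and red nucleus the groups overlap at day 10. The populations share mice.

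Tap2, the partner without which Tap1 forms no working transporter, showed no detected rise in lumbar neurons. In day 5 lumbar neurons Tap2 was 0, 0.145, 0, 0.15 and 0.308 RPKM in SMA mice and 0, 0.0515, 0.102, 0.374 and 0 RPKM in controls, levels at which the 2 groups cannot be separated. At day 10 it was 2.58, 1.47, 0, 1.47 and 1.005 RPKM in SMA mice and 0.631, 2.04, 0 and 0.934 RPKM in controls, a difference of 0.28 log2 units with an interval from -0.39 to 0.94. The lumbar day 5 difference was 0.02 (interval -0.60 to 0.65). Tap2 could be tested in 12 of the 18 comparisons of SMA with control, since it missed the filter on low values in the vagus and the red nucleus, and it was called in none.

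Tapbp, which was well measured, gave narrower limits. In lumbar neurons at day 5 its means were 19.6 and 20.8 RPKM in SMA and control mice, a difference of -0.08 log2 units with an interval from -0.53 to 0.36. At day 10 it was 22.1, 22.7, 26.4, 17.3 and 15.8 RPKM in SMA mice and 20.4, 20.3, 10.7 and 10.8 RPKM in controls. The ranges overlapped, and the difference of 0.44 had an interval from -0.03 to 0.92 (adjusted p = 0.532). A lumbar Tapbp change of the size seen for Tap1 at day 10 lies outside both intervals.

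Psmb9 replaces a catalytic subunit of the standard proteasome and shares its promoter region with Tap1. At day 5 in lumbar neurons it was 0, 7.91, 2.13, 2.95 and 0 RPKM in SMA mice and 0, 2.59, 6.76, 3.31 and 0 RPKM in controls. The groups covered the same range, so Psmb9 did not differ detectably when Tap1 was already high (difference -0.02, interval -1.31 to 1.26). At day 10 it was 11.5, 10.9, 16.2, 11.9 and 10.9 RPKM in SMA mice and 2.07, 1.61, 0 and 5.52 RPKM in controls.

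Every lumbar SMA mouse at day 10 thus had more Psmb9 than every control, with a ratio of means of 5.34. The difference of 2.29 log2 units (SE 0.67, interval 0.92 to 3.66) did not pass the test over all genes (adjusted p = 0.119), and 2.76% of genes were separated in this way at that age. It passed when the fit used the 2 groups alone (adjusted p = 0.0397). Facial neurons gave 14.3, 11.5, 23.4 and 7.56 RPKM in SMA mice and 0, 0, 11.2 and 1.74 RPKM in controls at day 10, with an overlap between the groups and a difference of 2.56 (adjusted p = 0.207). Leaving out facial control mouse 253 gave 3.34 (adjusted p = 0.0492).

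Psmb9 also had higher means in SMA hypoglossal neurons (10.3 against 3.24 RPKM) and ocular neurons (8.01 against 2.78 RPKM) at day 10, and differences of 1.66 and 1.53 log2 units that did not pass (adjusted p = 0.672 and 0.837). In the vagus at day 10 all 5 SMA mice were at 0. At day 5 Psmb9 in hypoglossal neurons had means of 6.83 and 1.69 RPKM in SMA and control mice, with overlapping ranges. That difference of 2.09 log2 units was not called. Of the 18 Psmb9 comparisons, 11 had an estimate above 0. An unadjusted p under 0.05 was found in 5, all of them higher in SMA, where all genes gave 7.1% of tests, and none was called. Because the Tap1 and Psmb9 models overlap on opposite strands and Smart-seq2 does not mark strand, reads from the shared bases cannot be assigned to one of them.

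**Figure D2:**
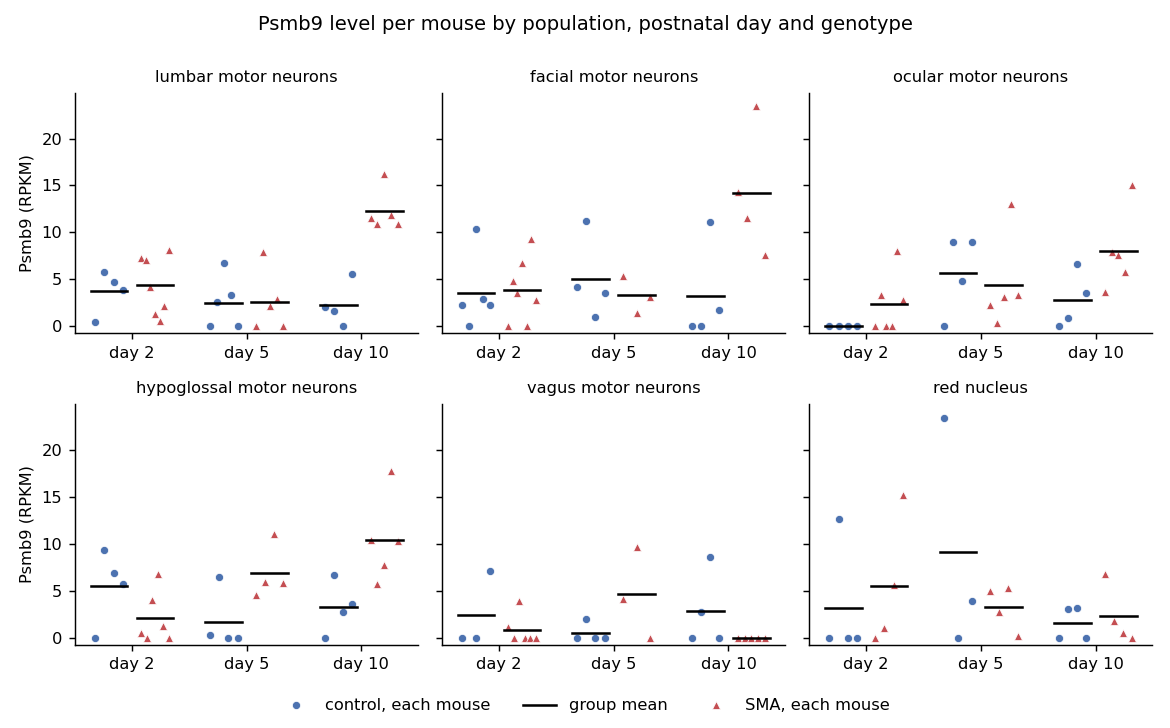
Psmb9 level in RPKM (vertical axis) in every mouse by postnatal day (horizontal axis) in the 6 populations; symbols are as in the Tap1 plot. In lumbar neurons the groups overlap at days 2 and 5 and separate at day 10, when SMA mice lie between 10.9 and 16.2 RPKM and controls between 0 and 5.52 RPKM.

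Psmb8, another inducible catalytic subunit, was near the floor. In lumbar neurons it was at 0 in 7 of 13 control samples and did not pass the filter on low values. At day 10 a single lumbar SMA mouse had 2.45 RPKM, and the 4 others had 0 to 0.292 RPKM against 0 to 0.216 RPKM in controls. Psmb10, the remaining inducible catalytic subunit, is not a member but was abundant: lumbar levels at day 10 were 88.8 ± 14.1 RPKM (SD, n = 5) in SMA mice and 59.8 ± 1.69 RPKM (SD, n = 4) in controls. These Psmb10 groups did not overlap, as for 2.76% of genes tested there. The difference of 0.55 log2 units did not pass (adjusted p = 0.178), and at day 5 the means were 60.6 and 60.5 RPKM.

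The class I molecule itself showed no detected rise with Tap1 in lumbar neurons. B2m at day 5 was 83.2, 107.6, 78.3, 115.97 and 72.7 RPKM in SMA mice and 65.9, 56.5, 72.3, 98.1 and 55.5 RPKM in controls. The ranges overlapped, and the difference of 0.40 log2 units had an interval from -0.13 to 0.92 (adjusted p = 0.739). At day 10 B2m was 28.9, 39.1, 34.6, 38.6 and 60.1 RPKM in SMA mice and 25.96, 49.6, 25.3 and 50.2 RPKM in controls, a difference of 0.12 (interval -0.44 to 0.68).

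The heavy chains were alike in that respect. H2-K1 at day 10 was 1.73, 5.57, 2.397, 2.44 and 3.38 RPKM in lumbar SMA mice and 1.42, 7.46, 4.71 and 2.10 RPKM in controls. The ranges overlapped, with a difference of -0.16 log2 units and a wide interval from -1.18 to 0.87. H2-D1, measured more precisely, was 36.3, 33.5, 84.8, 38.3 and 62.5 RPKM in SMA mice and 44.4, 62.0, 76.5 and 54.9 RPKM in controls, a difference of -0.28 (interval -0.82 to 0.26). At day 5 the differences were 0.41 for H2-K1 (interval -0.55 to 1.38) and 0.17 for H2-D1 (interval -0.34 to 0.68).

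Nlrc5, which activates class I genes, was too low in lumbar neurons to be tested: at day 5 all 5 controls and 4 of 5 SMA mice were at 0. Its highest value anywhere was in ocular neurons at day 10, with 0.541, 1.62, 29.3, 1.85 and 0.535 RPKM in SMA mice against 0, 0, 0 and 0.159 RPKM in controls. The groups did not overlap, as for 2.32% of genes tested there, and 1 SMA mouse stood far above the rest. The difference of 1.76 log2 units was not called (adjusted p = 0.404).

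**Figure D3:**
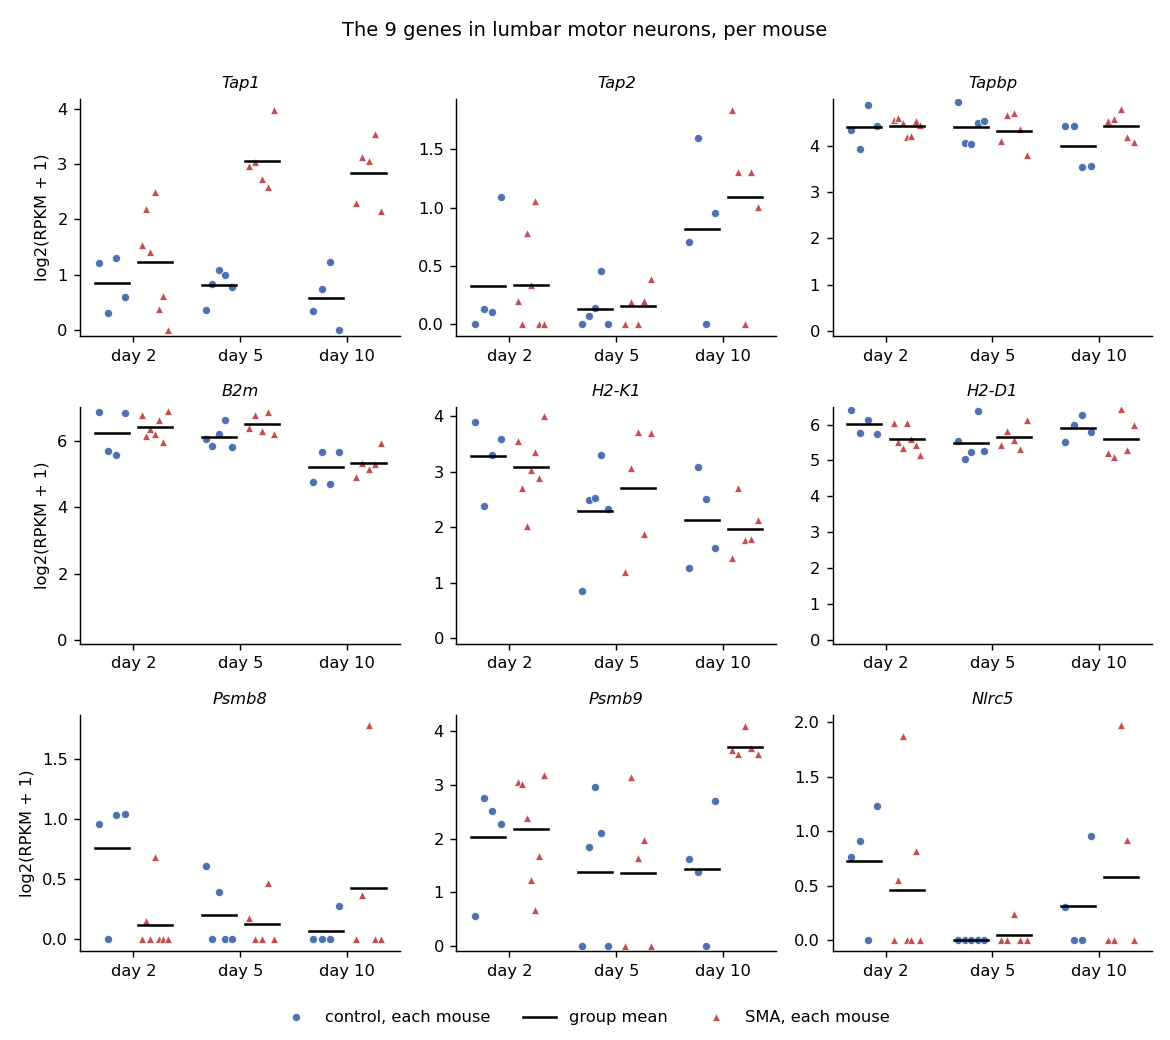
The 9 genes in lumbar motor neurons as log2(RPKM + 1) (vertical axis, scaled for each panel) in every mouse by postnatal day (horizontal axis); blue circles are controls, red triangles SMA mice and black bars group means. Tap1 separates the genotypes at days 5 and 10 and Psmb9 at day 10, while SMA and control mice overlap at every day for the other 7 genes.

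Over all 6 populations and 3 days, 142 tests of a member remained after setting aside the lumbar Tap1 values that chose the set. Of these, 2 were called higher in SMA, both Tap1 (lumbar and facial at day 10), and 0 were called lower by limma, against 0.11% and 0.0189% of all 296595 tests of all genes. In the tests of the 8 other members, 0 were called by limma and 14 (11.1%) had an unadjusted p under 0.05, 8 higher and 6 lower, where all genes gave 7.1%. Their estimates lay above 0 in 63 tests and at or below 0 in as many, with a median of -0.01 log2 units. The other members separated the groups with SMA higher in 4 comparisons and lower in 3, against 1.95% and 1.11% of all tests. In the 3 comparisons of day 10 in which Tap1 separated the groups, the median difference of the other members tested was 0.20 in lumbar (6 genes), 0.22 in facial (8 genes) and 0.22 in ocular neurons (8 genes), against 0.05, 0.01 and 0.06 for all genes. Of these, 4, 5 and 5 had an estimate above 0, and 0 were called by limma, with 1, 2 and 2 at an unadjusted p under 0.05.

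Outside lumbar neurons the largest values among B2m and the heavy chains did not share a direction. B2m in day 2 ocular neurons ranged from 32.0 to 62.6 RPKM in 6 SMA mice, with a median of 45.4 RPKM, and was 24.7, 2.82, 36.01 and 6.33 RPKM in controls. The groups overlapped, and the difference of 1.87 log2 units was not called (adjusted p = 0.194) except in the fit over all populations with the mouse as a block (adjusted p = 0.00191). H2-K1 in day 10 hypoglossal neurons was 10.5, 8.29, 8.96, 7.40 and 14.2 RPKM in SMA mice and 0.374, 5.84, 7.01 and 3.40 RPKM in controls. Those groups did not overlap, as for 1.86% of genes there, and the difference of 1.32 was not called (adjusted p = 0.466). In those samples the endothelial sum (57.99 to 101.2 RPKM in SMA mice, 109.5 to 153.9 RPKM in controls) and the red nucleus sum (17.7 to 27.0 against 3.46 to 13.1 RPKM) separated the genotypes too, and their part was not tested. H2-D1 was lower in SMA facial neurons at day 10 (47.3 against 79.8 RPKM, difference -0.75, adjusted p = 0.428) and in the SMA red nucleus at day 10 (43.1 against 77.4 RPKM, difference -0.70, adjusted p = 0.655), neither of them called.

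The red nucleus, which holds no motor neurons, showed how members varied without a steady direction. Tap1 there was 7.70, 3.74, 3.52 and 4.64 RPKM in SMA mice and 0.733, 0, 4.77 and 3.15 RPKM in controls at day 2 (difference 1.17, adjusted p = 0.528). At day 5 it was 4.17, 1.66, 0 and 0.491 RPKM in 4 SMA mice and 7.79, 1.51 and 5.77 RPKM in 3 controls (difference -1.32, adjusted p = 1). The sign of the difference thus reversed between these ages, with overlapping groups at both.

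H2-D1 in the red nucleus did the same with groups that did not overlap. At day 2 it was 54.5, 59.8, 56.4 and 69.3 RPKM in SMA mice and 75.8, 97.7, 96.6 and 70.9 RPKM in controls, lower in SMA as for 0.955% of the genes tested there. At day 5 it was 74.2, 87.3, 100.4 and 74.8 RPKM in SMA mice and 68.4, 56.02 and 56.3 RPKM in controls, higher in SMA as for 2.43% of genes. Neither difference was called (-0.49, adjusted p = 0.556, and 0.47, adjusted p = 1).

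B2m separated the groups with SMA lower in 2 comparisons, both at day 5. In the red nucleus it was 22.6, 18.6, 28.0 and 26.4 RPKM in SMA mice and 29.5, 35.8 and 37.04 RPKM in controls, and in the vagus it ranged from 154.8 to 188.8 RPKM in 3 SMA mice and from 200.7 to 325.2 RPKM in 4 controls. Of all genes, 1.79% and 2.72% were separated in that direction in these comparisons. The differences of -0.51 and -0.49 log2 units were not called (adjusted p = 1 and 0.927). In the red nucleus at day 5 the T and NK cell sum was 0 to 0.431 RPKM in SMA mice and 2.06 to 5.93 RPKM in controls, and its part in the B2m and H2-D1 values was not tested.

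**Figure D4:**
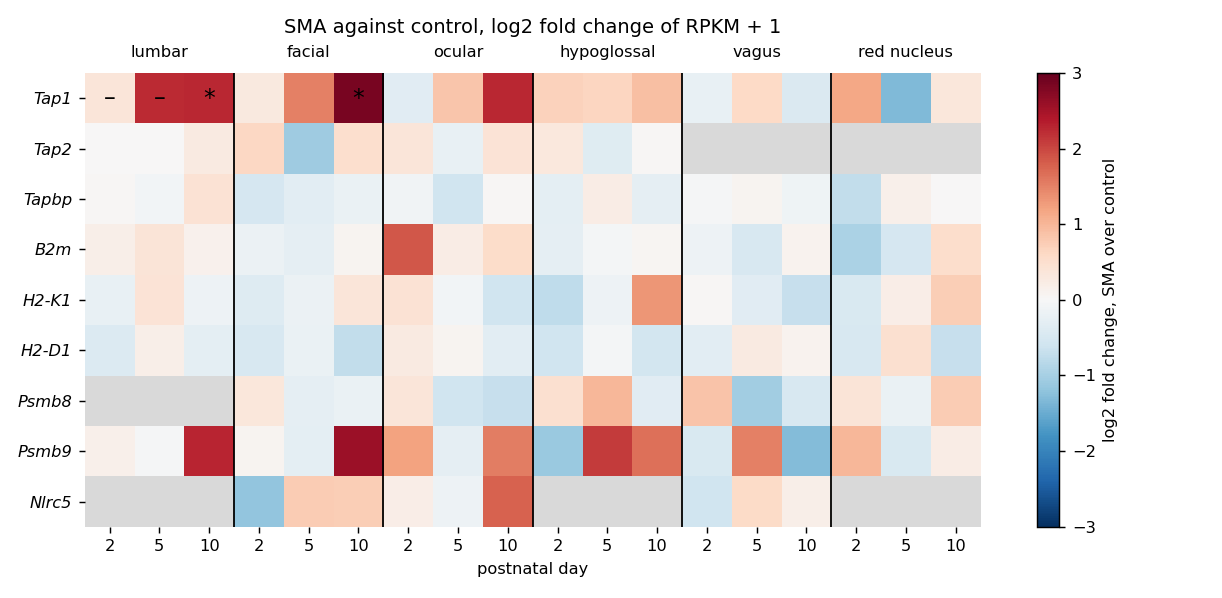
Log2 fold change of RPKM + 1 in SMA against control mice (colour) for each gene (rows) in each population and postnatal day (columns); red is higher in SMA, grey marks genes that missed the filter on low values, stars mark an adjusted p under 0.05 and dashes the lumbar Tap1 values given with no test. The stars are Tap1 in lumbar (2.25) and facial (2.85) neurons at day 10; the Psmb9 row is red at day 10 in lumbar, facial, ocular and hypoglossal neurons with no star.

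Related gene groups were read in lumbar neurons in the same fits; each is given by its counts and its median beside the median of all genes. None of 12 genes of peptide loading and trimming was called at any day, with a median of 0.11 log2 units at day 10 against 0.05 for all genes. Among them the activator subunits Psme1 and Psme2 differed by 0.61 and 0.36 and the trimming enzyme Erap1 by 0.02. None of 14 subunits of the standard proteasome core (day 10 median 0.21), none of the 8 tested of 22 other class I heavy chain genes (median -0.21) and none of 21 genes of interferon signalling (median -0.09) was called. Irf1, which carries the interferon signal to these promoters, differed by 0.72 (adjusted p = 0.623) at day 10.

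Of 31 interferon-stimulated genes, 10 passed the filter in lumbar neurons and 2 of them were called higher in SMA at day 10, with 0 called at days 2 and 5. Among all genes tested there, 0.708% were called higher at day 10. Irgm1, an interferon-induced GTPase, rose by 3.72 log2 units (SE 0.80, adjusted p = 0.0162), from 0 to 2.02 RPKM in controls to 11.6 to 72.6 RPKM in SMA mice. Xaf1, a pro-apoptotic factor, rose by 2.20 (SE 0.48, adjusted p = 0.0194). These 10 genes had a median of -0.07 at day 5 (0.03 for all genes) and of 0.73 at day 10 (0.05 for all genes).

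Among 16 p53 targets, more genes were called at day 10 than at day 5. At day 5 in lumbar neurons 2 were called higher, Cdkn1a, the p21 cell cycle inhibitor, by 3.45 log2 units (SE 0.38, adjusted p = 5.25e-06) and Ccng1 by 0.97 (SE 0.18, adjusted p = 0.0134). At day 10, 6 of 16 were called higher, and those with the largest changes were Cdkn1a (4.85), the death receptor Fas (3.62), the kinase Plk2 (2.30) and Gtse1 (1.91). Of all genes, 0.0366% and 0.708% were called higher at these ages. The list's median was 0.70 at day 5 and 0.93 at day 10, and the lists were not tested against each other. The p53 list was assembled with earlier results of these data known, so its direction is not independent evidence.

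The genes whose pattern was most like that of Tap1 are given as a description, since the samples include the lumbar values of days 2 and 5 that chose the set. Over 160 samples, after subtracting each population's mean, the highest Pearson correlations with Tap1 among 17202 genes were those of Pmaip1 (0.61), which encodes the cell-death protein Noxa, Trim72 (0.59), a membrane repair protein, Fas (0.56), Robo3 (0.56), an axon guidance receptor, and Ddit4l (0.55), an inhibitor of mTOR signalling. Cdkn1a ranked 7th at 0.53. The best members were Psmb9 at rank 292 (0.27) and Tap2 at rank 710 (0.23), and H2-D1 (-0.20), Tapbp (-0.14) and B2m (-0.08) were negative. These points share mice, ages and depth, and the SMA samples of day 10 weigh heavily in them: in lumbar neurons at that age Trim72 was 14.9 ± 6.00 RPKM (SD, n = 5) in SMA mice and 0.797 ± 0.312 RPKM (SD, n = 4) in controls, and Pmaip1 6.95 ± 2.13 and 0.316 ± 0.134 RPKM.

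Cells that present antigen or respond to it were sought by their markers beside the Tap1 result. In lumbar neurons at day 10 the 14 microglia markers summed to 13.7 to 30.97 RPKM in SMA mice and 11.4 to 37.2 RPKM in controls, and at day 5 to 11.6 to 92.4 and 14.8 to 41.1 RPKM. The 5 class II markers summed to 6.42 to 32.1 RPKM in SMA mice and 5.10 RPKM to a highest sum of 18 RPKM in controls at day 10. The 9 T and NK cell markers summed to 1.02 to 9.26 RPKM in SMA mice and 0 to 6.40 RPKM in controls, with medians of 7.56 and 2.42 RPKM. Of these, Cd3d, Cd3g and Gzmb were at 0 in every mouse of both genotypes, Cd4 in every SMA mouse, and Cd8a and Ptprc in every control. The ranges overlapped for each of these sums. The 5 pericyte markers did separate the genotypes at day 10, with sums of 14.9 to 34.8 RPKM in SMA mice and 7.67 to 13.6 RPKM in controls, and overlapped at day 5 (11.02 to 36.6 against 10.9 to 19.0 RPKM) and in facial neurons at day 10 (4.30 to 13.1 against 0.903 to 13.3 RPKM). No marker of these 4 lists was called by limma between genotypes in lumbar neurons at days 5 or 10. The pericyte sum and the T and NK cell median moved with Tap1 and Psmb9 in lumbar neurons at day 10, and their part in those levels was not tested.

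In control mice the pathway was set at different levels in the 6 populations, a comparison that played no part in choosing the genes. With the 3 days pooled, B2m lay at 3 levels. Hypoglossal, vagus and facial neurons had means of 221.1 ± 111.2 (SD, n = 12), 201.1 ± 56.4 (SD, n = 11) and 181.4 ± 73.1 RPKM (SD, n = 13). Lumbar neurons had 63.5 ± 29.3 RPKM (SD, n = 13), and the red nucleus and ocular neurons 30.8 ± 19.3 (SD, n = 11) and 27.4 ± 17.1 RPKM (SD, n = 12). The 3 highest means lay within their spread of each other, as did the red nucleus and ocular means, but these spreads include differences between ages. The order of means changed with age: hypoglossal neurons were highest at days 2 and 5 (285.9 and 292.6 RPKM) and vagus neurons at day 10 (173.7 RPKM). Facial, hypoglossal, lumbar, ocular and red nucleus means at day 10 were 89.6, 84.7, 37.7, 25.9 and 12.6 RPKM. In the fit over all populations, averaged over the 3 days, B2m in lumbar neurons was lower by 1.49 to 1.74 log2 units than in the facial, hypoglossal and vagus populations and higher by 1.37 than in ocular neurons and 1.07 than in the red nucleus. All 5 differences were called, with adjusted p from 2.64e-10 to 0.000137.

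Lumbar neurons were lower than other populations in most of the called differences of the 4 abundant members. Tapbp was 19.1 ± 5.80 RPKM (SD, n = 13) in lumbar controls against 36.8 ± 11.2 in the vagus, 34.8 ± 6.93 in the hypoglossal and 31.9 ± 10.01 RPKM in the facial nucleus, each called, and 11.9 ± 4.40 RPKM in the red nucleus, where lumbar neurons were higher by 0.70. H2-K1, averaged over all ages, was 5.91 ± 3.90 RPKM in lumbar and 15.7 ± 6.02 RPKM in ocular neurons (difference -1.41, adjusted p = 2.97e-05). The order of its means changed with age: hypoglossal neurons were highest at day 2 (27.1 RPKM), ocular neurons at day 5 (18.3 RPKM) and vagus neurons at day 10 (13.5 RPKM), while lumbar neurons were lowest at each age (9.52, 4.62 and 3.92 RPKM). By medians the red nucleus was highest at day 2 (20.5 RPKM, against 19.7 RPKM in hypoglossal neurons, where 1 mouse had 56.2 RPKM). The red nucleus median was also lowest at day 10 (1.82 RPKM, against 3.40 RPKM in lumbar neurons). H2-D1 ranged from 56.1 ± 17.4 RPKM in lumbar to 107.5 ± 32.8 RPKM in hypoglossal neurons (difference -0.90, adjusted p = 1.76e-05).

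Over the 5 comparisons of lumbar neurons with another population, 12 tests of a member were called lower and 3 higher. By comparison, 3 of 9 members were called lower than in facial, 4 than in hypoglossal, 1 than in ocular, 0 than in red nucleus and 4 than in vagus neurons, where 4.57%, 6.39%, 6.46%, 8.9% and 13.8% of 22270 genes were called lower. The 3 called higher were B2m against ocular neurons and B2m and Tapbp against the red nucleus, with 8.09% and 11.6% of all genes called higher. Tap1, Tap2, Psmb8, Psmb9 and Nlrc5 were called in none of the 5. The same mice gave samples to several populations, and a fit with the mouse as a block gave the same counts.

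Class I also changed with age in healthy mice, and here the light chain and a heavy chain moved in the same direction. In hypoglossal neurons of controls B2m measured 304.4, 255.7, 232.4 and 351.0 RPKM in the day 2 mice and 79.9, 30.8, 146.6 and 81.3 RPKM in the day 10 mice. The 2 ages did not overlap, as for 4.69% of genes tested there, and B2m fell by 1.92 log2 units (SE 0.36, adjusted p = 0.00148). H2-K1 in the same neurons fell by 2.50 (SE 0.45, adjusted p = 0.0009), from 13.01, 56.2, 20.98 and 18.4 RPKM to 0.374, 5.84, 7.01 and 3.40 RPKM.

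B2m also fell in facial controls, by 1.34 (SE 0.22, adjusted p = 0.00034), from a mean of 229.7 to 89.6 RPKM, and in the red nucleus by 1.75 (SE 0.37, adjusted p = 0.00298), from 46.5 to 12.6 RPKM. H2-K1 fell in the red nucleus by 2.42 (SE 0.56, adjusted p = 0.00595), where 1 day 10 mouse was at 20.01 RPKM and the 3 others had 0.425, 1.88 and 1.77 RPKM. The mouse at 20.01 RPKM, 252, gave the library of lowest depth of all, at 0.342 M reads. Without it the difference was -3.225 log2 units, and the part of depth was not tested. In lumbar neurons B2m went from 115.4, 50.8, 46.6 and 113.6 RPKM at day 2 to 25.96, 49.6, 25.3 and 50.2 RPKM at day 10, ranges that overlapped slightly. This fall of 1.04 log2 units (SE 0.29, adjusted p = 0.0143) lost its call without control mouse 20 or 244 of day 2 or 247 or 253 of day 10 (adjusted p = 0.0669 to 0.0848) and in the fit with the mouse as a block (adjusted p = 0.132). The median over all genes in that lumbar comparison was itself -0.10.

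In all, 6 tests of a member were called lower at day 10 than at day 2 and 0 higher by limma (1 of 9 members in facial, 2 of 8 in hypoglossal, 1 of 7 in lumbar and 2 of 7 in red nucleus neurons, with none in ocular and vagus neurons). Of all genes, 2.76%, 2.68%, 7.25% and 5.42% were called lower in those 4 populations, and 3.64% and 0.437% in ocular and vagus neurons. With the fit limited to the 2 ages compared, 3 tests were called lower: the falls of H2-K1 in hypoglossal (adjusted p = 0.0503) and red nucleus neurons (0.0722) and of B2m in lumbar neurons (0.0812) missed the threshold. Tapbp and H2-D1 were called in no population. All library numbers in the labels were lower in the day 2 than in the day 10 controls, so age and order of library numbering cannot be told apart.

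Cell-type markers moved over the same interval. In lumbar controls the 7 oligodendrocyte markers were all called higher at day 10 (median 4.38 log2 units), and 7, 7, 6 and 5 of 7 rose in red nucleus, ocular, hypoglossal and facial neurons. Of all genes tested, 4.76% were called higher in lumbar neurons and 5.72%, 4.38%, 2.43% and 2.6% in the others, in that order. In hypoglossal controls, where B2m and H2-K1 fell most, the microglia sum went from 35.3 to 60.3 RPKM at day 2 to 2.92 to 33.7 RPKM at day 10, and the endothelial sum went from 47.1 to 69.5 RPKM up to 109.5 to 153.9 RPKM. The part of these cells in the age differences was not tested. In vagus neurons, where no oligodendrocyte marker was called, B2m ranged from 116.9 to 249.1 RPKM at day 2 and from 152.1 to 194.5 RPKM at day 10. In ocular controls, where 7 of 7 such markers rose, the B2m mean was 17.5 RPKM at day 2 and 25.9 RPKM at day 10.

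**Figure D5:**
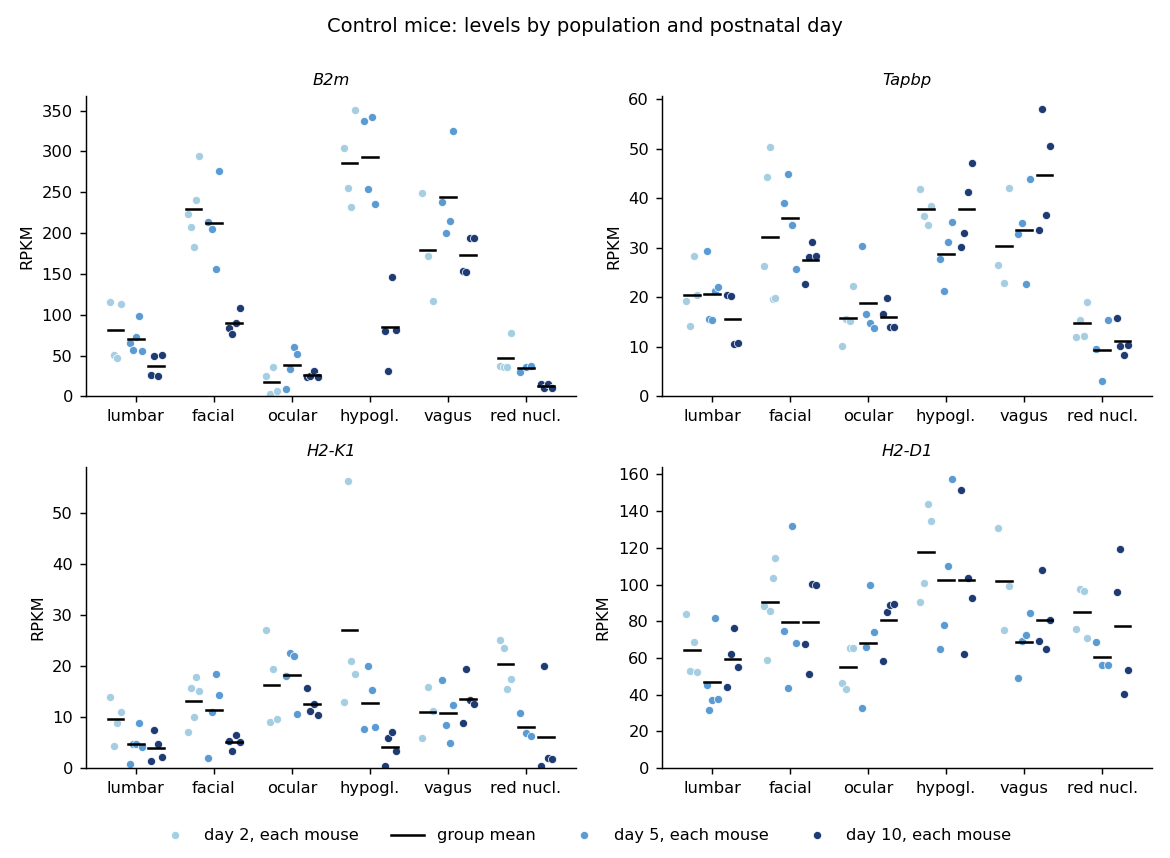
B2m, Tapbp, H2-K1 and H2-D1 in control mice in RPKM (vertical axes starting at 0) by population (horizontal axis; hypogl., hypoglossal; red nucl., red nucleus); darker points are older mice, each point is 1 mouse and black bars are means. B2m falls from day 2 to day 10 in facial, hypoglossal and red nucleus neurons (means 229.7 to 89.6, 285.9 to 84.7 and 46.5 to 12.6 RPKM) and H2-D1 keeps overlapping ranges in these populations.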

How the data were processed

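Laser-captured neurons were profiled by Smart-seq2 with Tn5 tagmentation, per the labels' protocols. STAR 2.4.1c and the builds mm10 and hg19 are named in the submitters' processing notes; the counting tool, annotation and strand setting are not given in the sources used here. The deposited values are RPKM per gene and library, made by the authors and used as deposited. Libraries of the same mouse and population were averaged. Genes with RPKM of at least 1 in as many samples as the smallest group entered limma 3.58.1 (R 4.3.3; log2 of RPKM plus 1, trended variance, Benjamini-Hochberg adjustment), 1 fit per population with 6 groups, or 1 fit over 36 groups for comparisons between populations; a call is an adjusted p under 0.05. Fold changes on this scale understate changes of low genes. The lumbar fit was checked on simulated normal log2 values, with changes added at day 10 only to genes above a low mean. That check does not cover changes in members near the floor or single outlying mice. Intervals are 95% confidence intervals of a difference. Tables were joined in Python 3.11.15.

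The members and lists were chosen with earlier results of these data known. Named genes were the 9 members, genes of other lists called in lumbar neurons (at most 4 a list and day), Psmb10, Erap1, Psme1, Psme2, Irf1, Cdkn1a and the 5 genes most correlated with Tap1 among those with RPKM of at least 1 in 16 or more samples. Some genes are not reported here. Cell markers at 0 and the mice whose absence changes a call were named after their values were seen. Mouse numbers in the labels tie samples of different populations to one animal; deviations of 339 such pairs had a median correlation of 0.0328, against -0.00642 in 1480 pairs of other mice, and the consensus correlation of the mouse block was 0.0366. Each group holds separate mice. RPKM carry no counts, so depth was recovered from the steps of low values.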

Additional observations from a re-analysis of the deposited data

Results flagged for a closer look

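In 28 groups of mice behind the results above, the highest and lowest samples were compared with the rest on the log2(RPKM + 1) scale by Dixon's test, which flags about 1 group in 20 by chance; 4 samples stood apart. B2m in the red nucleus of day 2 controls was 78.1 RPKM in mouse 244, against 35.3 to 36.8 RPKM in the 3 others. Psmb9 in lumbar neurons of day 10 SMA mice was 16.2 RPKM in mouse 249, against 10.9 to 11.9 RPKM in the 4 others. Tap1 in ocular neurons of day 10 SMA mice was 15.7 RPKM in the same mouse 249, against 6.59 to 8.35 RPKM in the others. Tap1 in ocular neurons of day 10 controls was 0.065 RPKM in mouse 252, against 1.43 to 1.76 RPKM in the others.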

How the results depend on the processing

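Of the 142 tests of a member in SMA against control, 2 were called higher, both of Tap1; the count was 1 with a pseudocount of 0.1, 4 when each fit held the compared groups alone (Tap1 in ocular and Psmb9 in lumbar neurons at day 10 being added), and between 1 and 3 over fits leaving out 1 mouse each. With the mouse as replicate block in one fit over all populations it was also 4, Tap1 in ocular neurons at day 10 and B2m in ocular neurons at day 2 being added; each library as its own sample, where the number of samples exceeds that of mice, added Tap1 in ocular neurons (adjusted p = 0.00702). The count of tests of a member lower at day 10 than at day 2 in controls was 6, against 3 in fits of the compared groups alone, 5 with the replicate block and 5 to 7 without 1 mouse (Nlrc5 in hypoglossal neurons passed without day 2 mouse 28, -1.38, adjusted p = 0.0108). The count higher at day 10 was 0, and between 0 and 1 without 1 mouse: Tap2 in ocular neurons passed without control mouse 247 (1.30, adjusted p = 0.0415). The cause of these changes was not tested. The lumbar day 5 difference of Tap1 was 2.24, and 3.16 with a pseudocount of 0.1. No direction of a named result reversed in any alternative run. Filters on low values and quantile normalization gave the same count of 2, and the block changed no call other than those given. Tap2, Psmb8 and Nlrc5 had medians under 1 RPKM.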
